A study of Mus musculus with 45 samples.

Results

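The 10 genes described here build, acetylate, guard or open the cohesin ring that holds sister chromatids together: the ring subunits Smc3, Smc1b, Rad21, Rec8 and Stag3, the acetyltransferases Esco1 and Esco2, the shugoshins Sgo1 and Sgo2a, and separase, encoded by Espl1. They were picked by gene symbol from the 55357 genes of the deposited count table. Cohesin is a ring of SMC proteins closed by a kleisin and bound by an SA subunit, and in meiosis Rec8 takes the place of Rad21 as the main kleisin. Separase cleaves Rec8 along chromosome arms when homologs part, while shugoshin keeps the phosphatase PP2A at centromeres so that Rec8 is spared there until the later division. In mouse oocytes the cohesin that joins the chromatids is loaded before birth and must last until ovulation, and its loss is a known feature of ageing eggs.

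Each of the 45 libraries holds the RNA of 1 mouse oocyte. Follicles were rebuilt by placing an oocyte into a follicle emptied of its own oocyte and culturing it there, and 3 groups came from such reconstituted chimeric follicles: AY, an aged oocyte among young somatic cells (6 libraries), AA, an aged oocyte among aged somatic cells (12 libraries), and YY, a young oocyte among young somatic cells (11 libraries). The 2 control groups were oocytes of young mice, in vitro young after culture without reconstitution (8 libraries) and in vivo young without culture (8 libraries). The labels give no strain, age, meiotic stage or donor animal, so the p-values below reflect how single oocytes vary within a group, which may be technical or of 1 animal. Each group also has its own range of library numbers, and AY (S234 to S244) and AA (S268 to S279) share none with YY (S198 to S202 and S225 to S231), so the numbering series and the group cannot be told apart.

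Libraries held 418703 to 2201980 counts, and 3 counts, taken here as the limit that a count of 0 allows, equal 1.36 CPM (counts scaled to the size of the library) in the deepest and 7.16 CPM in the shallowest. All 10 oocyte markers were present in every library, with summed levels of 12632 to 30345 CPM. Granulosa cell markers summed to 69.9 to 246 CPM in AY, 91.2 to 403 in AA, 54.8 to 109 in YY, 66.7 to 126 in in vitro young and 43.2 to 140 in in vivo young oocytes. Among them Nr5a2 (mean 40.6 CPM) and Cyp19a1 (19.1 CPM) had counts in all 45 libraries, Inha in 42 and Gja1 in 38. Inhba, Hsd17b1, Fshr and Inhbb had counts in 25 to 34 libraries and Amhr2 in 7, while Amh was at 0 throughout and Foxl2 was seen in 2 libraries. Theca, stroma and immune marker sums did not exceed 10.3 CPM. Earlier work on these data found 11 genes that are either on or off in single oocytes, and their 10 on-off patterns divide AY into sets of 4 and 2 libraries, AA into sets of 9 and 3, and YY into sets of 4, 3, 2 and 2. No pattern is shared between AY, AA and YY, and whether libraries with 1 pattern come from 1 animal is not given.

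Of the 10 genes, 8 passed the filter on low counts and were tested. In AA against YY oocytes 4 of the 8 were called at an adjusted p under 0.05 (edgeR quasi-likelihood test): the shugoshins Sgo2a and Sgo1 were higher, and Espl1 and Rad21 were lower. All genes tested set the background at 27.5% called in that comparison, 12.8% higher and 14.7% lower. In AY against AA oocytes 1 of the 8, Espl1, was called higher, on a background of 6.59%. In AY against YY oocytes 2 of the 8 were called, Sgo2a higher and Esco1 lower, on a background of 1.62%, 0.715% higher and 0.902% lower. None of the 8 was called between YY and in vitro young oocytes (background 2.48%, 0 at an unadjusted p under 0.05) or between in vitro young and in vivo young oocytes (background 0.137%, 0.126% higher and 0.0114% lower, 1 at an unadjusted p under 0.05), and DESeq2 and limma voom called none there either. The median log2 fold change of the 8 genes was -0.04 in AA against YY, where that of all 8533 tested genes was -0.01. It was -0.01 in AY against AA and -0.12 in AY against YY, where the medians of all genes were 0.00 and -0.01. These 3 comparisons share libraries, so they are not independent of each other. With the libraries of each on-off pattern summed to 1 sample none of the 8 was called in any comparison. Hardly any gene was called under that setting, 2 of all genes in AA against YY, 1 in AY against AA and 0 in AY against YY. With library totals as the only scaling the median of all genes in AA against YY moved to -0.11. Genes higher in AA then made up 29.5% of the calls in AA against YY (46.4% with TMM scaling), genes higher in AY 69.5% of those in AY against AA (53.4% with TMM), and genes higher in YY 47.3% of those in YY against in vitro young oocytes (31.3% with TMM). The called members kept their direction and their call under that scaling.

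**Figure D1:**
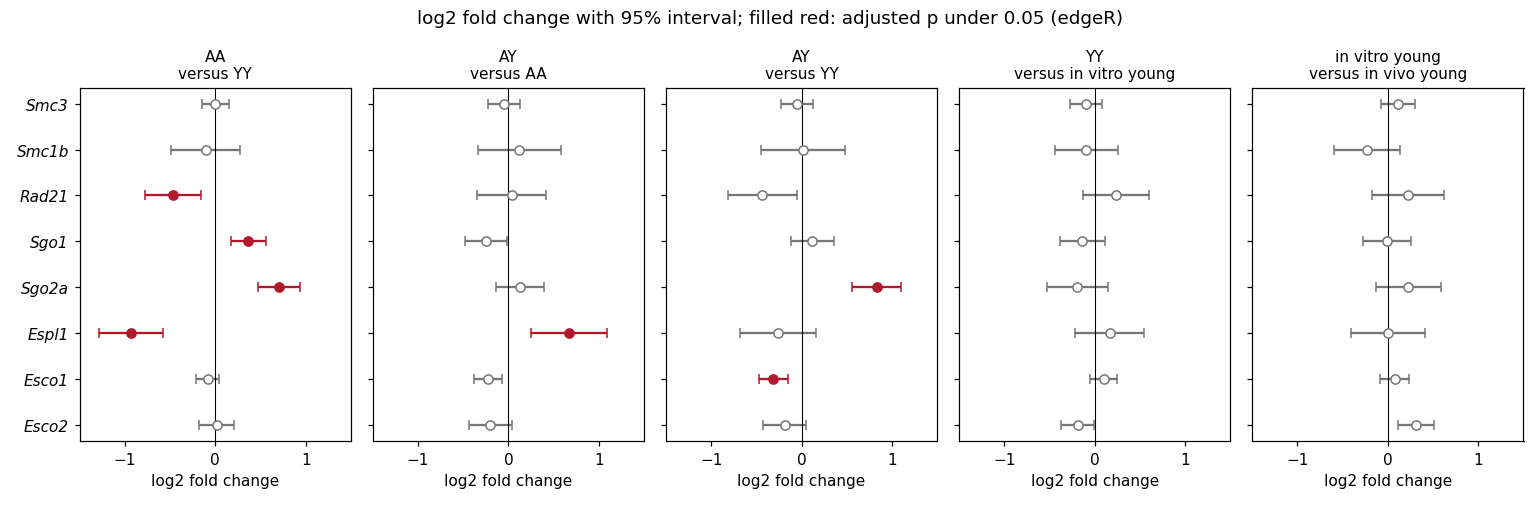
log2 fold change (horizontal axis) of each tested gene in the 5 comparisons, first-named group over second, with 95% intervals. Filled red points passed an adjusted p under 0.05: in AA against YY they are Rad21 and Espl1 to the left of 0 and Sgo1 and Sgo2a to the right, and no point is filled in the 2 comparisons with control oocytes.

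RefSeq promoter windows (GRCm38.p6, 250 bases before to 50 after the annotated start, 5′ to 3′ on the gene's strand) matched 7 of the 10 genes. They are printed for Sgo2a, Sgo1 and Espl1, 3 of the 4 genes called between AA and YY, so that their letters can be read beside the levels. Rad21 has no entry. Capitals mark the letters TTTGAA (the CHR motif), CCAAT (the CCAAT box) and TTTNNCGC (an E2F-like motif), each searched on both strands.
Sgo2a, chr1:57995724-57996023, plus strand: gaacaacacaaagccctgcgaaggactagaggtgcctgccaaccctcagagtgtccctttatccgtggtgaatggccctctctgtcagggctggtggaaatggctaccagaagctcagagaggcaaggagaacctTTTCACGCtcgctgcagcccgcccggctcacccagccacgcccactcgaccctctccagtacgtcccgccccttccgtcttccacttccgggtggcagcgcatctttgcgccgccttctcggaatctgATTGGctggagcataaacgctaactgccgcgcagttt
Sgo1, chr17:53689266-53689565, minus strand: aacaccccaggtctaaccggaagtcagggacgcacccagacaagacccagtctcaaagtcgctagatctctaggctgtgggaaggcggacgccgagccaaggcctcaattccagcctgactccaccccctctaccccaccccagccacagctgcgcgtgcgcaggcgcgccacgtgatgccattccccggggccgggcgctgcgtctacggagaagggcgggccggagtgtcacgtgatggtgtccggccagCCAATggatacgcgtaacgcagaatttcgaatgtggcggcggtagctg
Espl1, chr15:102296043-102296342, plus strand: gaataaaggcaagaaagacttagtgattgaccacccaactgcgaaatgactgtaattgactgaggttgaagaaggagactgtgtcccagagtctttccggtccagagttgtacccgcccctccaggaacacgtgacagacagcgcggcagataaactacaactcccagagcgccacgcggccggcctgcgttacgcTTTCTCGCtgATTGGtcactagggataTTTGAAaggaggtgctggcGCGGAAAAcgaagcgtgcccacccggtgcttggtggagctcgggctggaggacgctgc
The Espl1 window holds 1 TTTGAA, 1 CCAAT (read as ATTGG) and 2 TTTNNCGC matches, 1 of them on the reverse strand. The Sgo2a window holds 1 CCAAT and 1 TTTNNCGC match, and the Sgo1 window 1 CCAAT match 3 bases into the transcript. A further Sgo2a window upstream, starting at base 57985090, is not shown. Among 32851 mouse promoter windows of 300 bases, 17.9% hold TTTGAA, 37.4% hold CCAAT and 5.2% hold TTTNNCGC, and a match describes letters only.

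Per kilobase of exon, the mean level over all 45 libraries was highest for Smc3 at 95.5 CPM per kb, followed by Esco2 at 82.6 and Esco1 at 79.2. Sgo1 stood at 35.0, Rad21 at 16.8, Smc1b at 8.41, Sgo2a at 8.36 and Espl1 at 5.94 CPM per kb. Stag3 reached 0.62 CPM per kb, and Rec8 is listed at 0. Smc3 and the 2 acetyltransferases that modify it were the most abundant of these transcripts, and Smc1b and Stag3 lay in the lower part of the order.

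**Figure D2:**
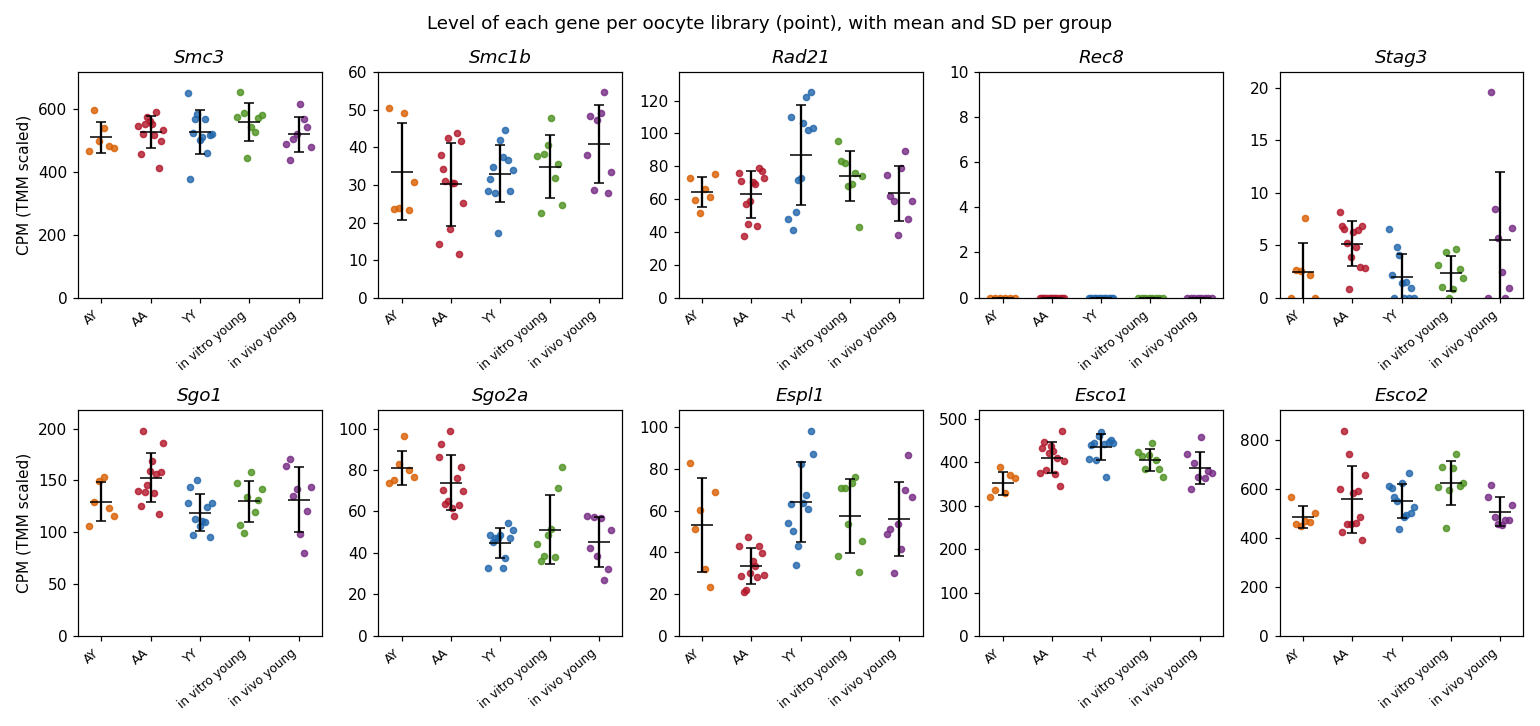
TMM-scaled CPM (vertical axis, from 0) of the 10 genes in every library, with group means and SDs (horizontal and vertical bars). Sgo2a lies higher in all AY and AA libraries than in any YY library, Espl1 is lowest in AA, and Rec8 is at 0 throughout.

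Smc3 (chr19:53588829-53634265 in mm39, the build of the deposited coordinates) encodes the SMC subunit common to mitotic and meiotic rings. It ranged from 468 to 597 CPM in AY (median 490), from 411 to 591 in AA (median 540), from 378 to 650 in YY (median 522), from 443 to 654 in in vitro young (median 574) and from 437 to 618 in in vivo young oocytes (median 512). All 5 groups overlapped, and the log2 fold change of AA over YY was -0.00 with a 95% interval of -0.15 to 0.15 (adjusted p = 0.986). Among the ring transcripts with counts it had the smallest SD relative to the mean, 9.69% in AA and 13.4% in YY, where counting alone would give 4.87% in each. It also had the most counts of them, and this order was not corrected for counting error. The SD of Rad21 in AY, for example, was 13.9% of the mean, where counting alone would give 13.7%.

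Smc1b (chr15:84948890-85016166) encodes the meiosis-specific partner of Smc3, without which mouse oocytes lose cohesion with age. Its level was 23.2 to 50.4 CPM in AY (median 27.3), 11.5 to 43.8 in AA (median 30.8), 17.1 to 44.7 in YY (median 34.0), 22.6 to 47.8 in in vitro young (median 36.6) and 27.8 to 54.7 in in vivo young oocytes (median 42.6). The groups overlapped fully and no comparison was called. The 95% interval of AA over YY, -0.49 to 0.28 on the log2 scale (estimate -0.11 ± 0.20 SE, adjusted p = 0.737), is wide, and libraries held 7 to 118 counts of the gene.

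Rad21 (chr15:51825636-51855144) encodes the kleisin of mitotic rings. It measured 51.5 to 75.6 CPM in AY (median 63.7), 37.6 to 79.1 in AA (median 69.6), 41.0 to 125 in YY (median 102), 43.1 to 95.2 in in vitro young (median 75.1) and 38.3 to 89.4 in in vivo young oocytes (median 60.5). All 12 AA libraries were below the YY median although the ranges overlapped, and the log2 fold change was -0.47 ± 0.16 (SE, adjusted p = 0.0235, edgeR). The call depended on which YY libraries were used: YY S198 to S202 averaged 64.5 ± 27.8 CPM (SD, n = 5) and YY S225 to S231 105 ± 18.6 CPM (SD, n = 6). Against S198 to S202 alone the log2 fold change was -0.01 (adjusted p = 0.978), and against S225 to S231 alone it was -0.75 (adjusted p = 5.6e-05). It was also lost without YY replicate 10 (adjusted p = 0.0625) and with the on-off pattern as a random block in limma voom (adjusted p = 0.111).

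Rad21 levels were also split by on-off pattern within groups. The share of all tested genes that separate these small sets was not counted. The AA set of 3 libraries lay at 37.6 to 45.1 CPM and the AA set of 9 at 57.0 to 79.1, with no overlap. In YY the set of 3 lay at 41.0 to 52.2 CPM and the set of 4 at 103 to 125, while the 2 sets of 2, at 71.5 to 110 and 73.1 to 102 CPM, overlapped each other and 1 of them also the set of 4. The YY set of 3 lies wholly in S198 to S202 and the set of 4 in S225 to S231. Their difference cannot be told apart from that between the 2 YY series given above. AY oocytes, all 6 below the YY median, had a log2 difference from YY of -0.43 ± 0.19 (SE) that did not pass (adjusted p = 0.298), although it did against YY S225 to S231 alone (-0.71, adjusted p = 0.00563).

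Rec8 (chr14:55855494-55862853), the meiotic kleisin, had 0 counts in all 45 libraries. No other gene of the table overlaps it. A count of 0 allows up to 7.16 CPM in the shallowest library and 1.36 CPM in the deepest. Over all 45 libraries together the limit is lower than in any single one. Of the 21833 protein-coding genes, 5404 were likewise at 0 in every library. Whether these zeros reflect the oocytes or how the deposited table was counted was not tested, so they are not read as absence of the transcript, and no comparison could be made.

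Stag3 (chr5:138278502-138310656), the meiosis-specific SA subunit, had 137 counts in all and failed the filter. It was at 0 to 7.56 CPM in AY (median 2.31), 0.84 to 8.21 in AA (median 5.72), 0 to 6.52 in YY (median 1.35), 0 to 4.66 in in vitro young (median 2.28) and 0 to 19.6 in in vivo young oocytes (median 4.08). Counts were 0 to 4 in AY, 1 to 8 in AA, 0 to 4 in YY, 0 to 6 in in vitro young and 0 to 23 in in vivo young oocytes, so most libraries lie near the limit that a count of 0 allows.

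The balance between meiotic and general subunits was read from ratios within each library, of counts per kb after adding 0.5 count. The log2 ratio of Stag3 to the sum of Stag1 and Stag2, the general SA subunits, was -2.86 ± 0.72 in 12 AA oocytes and -4.81 ± 1.49 in 11 YY oocytes (mean ± SD), which differ by 1.95 (two-sided permutation test, adjusted p = 0.0074 over 10 tests). The size of this difference moved between 1.21 and 2.82 with 2 or 0.1 count added. Against YY S198 to S202 alone the difference was 0.93 (adjusted p = 0.335), and Stag3 itself averaged 3.50 CPM in that series and 0.62 CPM in S225 to S231. In AY the ratio was -4.41 ± 1.71 (SD, n = 6), which differed from AA by -1.55 (exact permutation test, adjusted p = 0.0638), and no other comparison passed. These ratios rest on at most 8 Stag3 counts in any AY, AA or YY library.

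The log2 ratio of Smc1b to Smc1a, its general paralog, was -0.99 ± 0.43 in AY (SD, n = 6), -1.51 ± 0.69 in AA (SD, n = 12), -1.12 ± 0.46 among YY oocytes (SD, n = 11), -1.09 ± 0.51 in in vitro young (SD, n = 8) and -0.72 ± 0.57 in in vivo young oocytes (SD, n = 8). The highest value in any library was -0.03, so Smc1a had more counts per kb than Smc1b in all 45. Adjusted p ranged from 0.317 to 0.894 over the 5 comparisons (permutation tests, two-sided). Rad21l, a further meiotic kleisin, did not exceed 4.06 CPM in any library.

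Esco1 (chr18:10566507-10610353), which acetylates Smc3 through the cell cycle, was at 321 to 390 CPM in AY (median 350), 347 to 473 in AA (median 415), 366 to 470 in YY (median 444), 366 to 446 in in vitro young (median 410) and 339 to 458 in in vivo young oocytes (median 379). All 6 AY libraries were below the YY median, with some overlap of the ranges. The log2 fold change of AY over YY was -0.31 ± 0.08 (SE, adjusted p = 0.0321, edgeR). It was not called with only the AY and YY libraries in the fit (adjusted p = 0.0908), with no filter on low counts (adjusted p = 0.223), against YY S198 to S202 alone (adjusted p = 0.0831), with the on-off pattern as a random block (adjusted p = 0.145) or with 8 of the 17 libraries left out in turn (AY replicates 1, 2, 4, 5 and 6 and YY replicates 6, 9 and 10). Over all 17 omissions the fold change lay between -0.34 and -0.29. All 6 AY libraries were also below the AA median, with a log2 difference of -0.23 ± 0.08 (SE) that missed the threshold in edgeR (adjusted p = 0.0754) and passed it in DESeq2 and limma voom (adjusted p = 0.031 and 0.0447). In AA against YY the difference was -0.09 (95% interval -0.21 to 0.04), and it passed only with scaling by library totals (-0.18, adjusted p = 0.033).

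Esco2 (chr14:66056487-66071444), the acetyltransferase that works during DNA replication, was at 450 to 565 CPM in AY (median 467), 391 to 838 in AA (median 533), 436 to 663 in YY (median 550), 439 to 743 in in vitro young (median 618) and 453 to 614 in in vivo young oocytes (median 479). It was not called in any comparison. The largest difference was 0.31 ± 0.10 (log2, SE) for in vitro young over in vivo young oocytes, where 7 of 8 in vitro young libraries lay above the in vivo young median (adjusted p = 0.222).

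Sgo2a (chr1:58035130-58065059) encodes shugoshin 2, the protector of centromeric cohesin in mouse oocytes. Its level was 73.8 to 96.4 CPM in AY (median 78.5), 57.8 to 99.0 in AA (median 70.1), 32.5 to 54.3 in YY (median 47.3), 36.0 to 81.3 in in vitro young (median 46.7) and 26.9 to 57.8 in in vivo young oocytes (median 46.8). Every AA library was above every YY library, which 0.621% of tested genes showed in either direction, and every AY library was above every YY library, which 0.234% showed. Both groups of aged oocytes were therefore separate from YY, but not from all young control oocytes. Of the in vitro young libraries 2, at 71.2 and 81.3 CPM, lay within the AA range, and these are the 2 with 1 on-off pattern, while the other 6 lay at 36.0 to 51.8 CPM. The 2 in vivo young libraries with that same pattern lay at 51.1 and 56.6 CPM, and the highest in vivo young library, at 57.80 CPM, just exceeded the lowest AA library, at 57.77 CPM.

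The log2 fold change of Sgo2a was 0.70 ± 0.12 (SE) for AA over YY (adjusted p = 2.5e-05, edgeR) and 0.83 ± 0.14 for AY over YY (adjusted p = 0.00063), and the 2 values share the YY libraries. AY and AA did not differ detectably, at 0.13 with a 95% interval of -0.14 to 0.39 (adjusted p = 0.638). The level was alike in the YY series, 44.2 ± 6.59 CPM in S198 to S202 (SD, n = 5) and 45.2 ± 8.42 in S225 to S231 (SD, n = 6), and the call held against either one, as it did with each library left out in turn and with the on-off pattern as a random block. The call was lost when patterns were summed, where 2 of all genes were called in AA against YY and 0 in AY against YY. The Sgo2a fold change was then 0.64 for AA over YY (adjusted p = 0.154) and 0.77 for AY over YY (adjusted p = 0.403). Granulosa markers moved the same way. Of 5 tested, 3 were called higher in AA than in YY (background 12.8%) and 2 higher in AY than in YY (background 0.715%). Of 10 oocyte markers, 3 and 1 were called higher in these comparisons and 0 lower. Between YY and in vitro young oocytes 4 of the 10 were called lower in YY (background 1.7%) and 0 higher. Their summed level had its lowest median in YY, at 14733 CPM. It was 16396 CPM in AA, 17912 in AY, 22879 in in vitro young and 23053 in in vivo young oocytes. The part of either marker set in the Sgo2a result was not tested.

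Other features of the locus and the family bear on what the Sgo2a count holds. Kctd18 overlaps Sgo2a over bases 58035130 to 58058116, and the strand setting of the counting is not given, so reads in that stretch cannot be assigned with certainty. Kctd18 had 259 counts in all and Sgo2a 2324, and Kctd18 averaged 5.66 CPM in AY, 4.65 in AA and 8.51 in YY, too low to be tested. Sgo2b is a paralog of Sgo2a, and reads that match both could have been split between them. Sgo2b was at 32.0 to 62.8 CPM in AY (median 49.6), 11.5 to 41.9 in AA (median 23.8) and 12.7 to 92.1 in YY (median 28.3), and it was higher in AY than in AA (log2 0.97 ± 0.29 SE, adjusted p = 0.0386, edgeR), a call lost with 11 of 18 libraries left out in turn (AY replicates 1 to 5 and AA replicates 1, 4, 5, 7, 10 and 11) and with the on-off pattern as a random block.

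With the 2 paralogs' counts added, a choice made after seeing their values, the sum was 109 to 151 CPM in AY (median 127), 74.8 to 130 in AA (median 101), 50.4 to 141 in YY (median 65.6), 56.7 to 98.7 in in vitro young (median 79.4) and 42.6 to 87.4 in in vivo young oocytes (median 67.2). YY replicate 6, with 92.1 CPM of Sgo2b, had the top YY value, and both AA and AY then overlapped YY. The summed count remained higher in AY than in YY (log2 0.72, adjusted p = 0.00877), and the difference between AA and YY no longer passed (0.33, adjusted p = 0.0639).

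**Figure D3:**
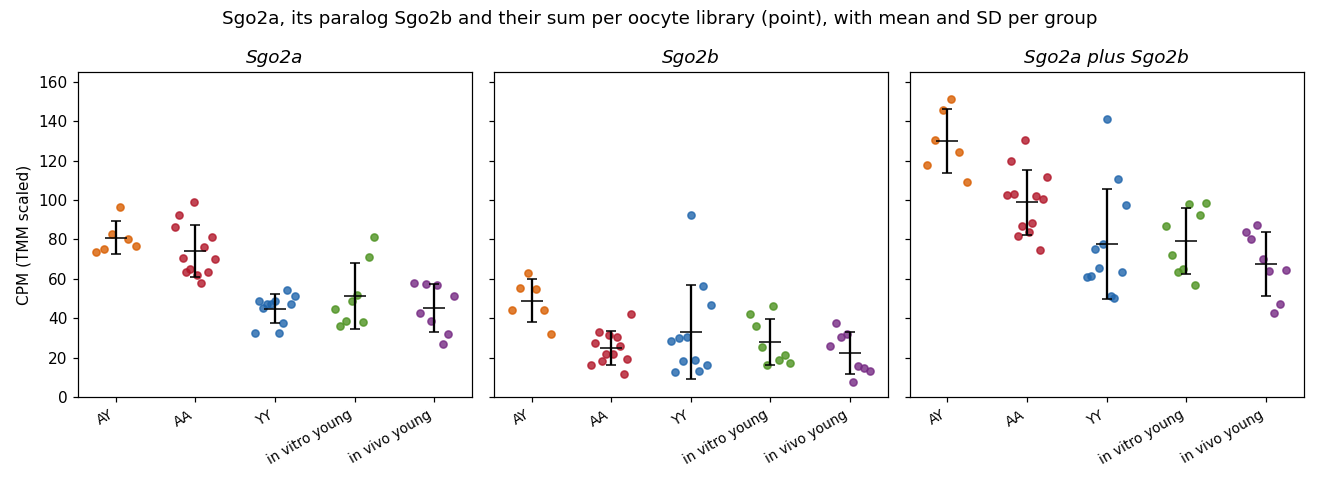
TMM-scaled CPM (vertical axis, from 0) of Sgo2a, its paralog Sgo2b and their sum in every library, with group means and SDs. Sgo2a separates AY and AA from YY, and the sum in AA, 74.8 to 130 CPM, overlaps YY, 50.4 to 141 CPM.

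Sgo1 (chr17:53981814-53996362) encodes shugoshin 1, the main protector of cohesion in mitosis. It ranged from 106 to 153 CPM in AY (median 126), from 118 to 197.98 in AA (median 151), from 95.6 to 150 in YY (median 113), from 99.6 to 158 in in vitro young (median 133) and from 79.7 to 171 in in vivo young oocytes (median 138). All 12 AA libraries were above the YY median with overlapping ranges, and the log2 fold change of AA over YY was 0.36 ± 0.10 (SE, adjusted p = 0.00483, edgeR). The call was lost against YY S198 to S202 alone (0.27, adjusted p = 0.22). AY stood between AA and YY, with differences that did not pass from AA (-0.25 ± 0.12, adjusted p = 0.21) or from YY (0.12 ± 0.12, adjusted p = 0.72).

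Espl1 (chr15:102204701-102232793) encodes separase, the protease that cleaves the kleisin. It was at 23.2 to 82.8 CPM in AY (median 55.9), 21.3 to 47.6 in AA (median 31.8), 34.0 to 98.5 in YY (median 63.3), 30.8 to 76.2 in in vitro young (median 62.4) and 30.3 to 86.9 in in vivo young oocytes (median 52.4). AA was the lowest group, with all 12 libraries below the YY median and some overlap of the ranges. The log2 fold change of AA over YY was -0.93 ± 0.18 (SE, adjusted p = 0.000162, edgeR), and it stayed between -1.001 and -0.847 with each library left out in turn. YY S198 to S202 averaged 49.0 ± 11.1 CPM (SD, n = 5) and YY S225 to S231 76.8 ± 14.97 (SD, n = 6), and against S198 to S202 alone the fold change was -0.52 (adjusted p = 0.172).

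In AY the 6 libraries were spread widely, the set of 4 with 1 on-off pattern at 23.2 to 60.3 CPM and the set of 2 with the other at 69.2 to 82.8 CPM. How many of all genes separate these sets was not counted. The log2 fold change of AY over AA was 0.67 ± 0.21 (SE, adjusted p = 0.049, edgeR), with 5 of 6 AY libraries above the AA median. It passed narrowly and was lost with 12 of the 18 libraries left out in turn (AY replicates 1, 2, 3 and 6 and AA replicates 2, 3, 4, 6, 7, 8, 9 and 12), in limma voom (0.51, adjusted p = 0.141), in a fit of all 45 libraries (adjusted p = 0.0584) and with the pattern as a random block (adjusted p = 0.306). Over all 18 omissions the fold change lay between 0.49 and 0.83. Between AY and YY the difference was -0.26 ± 0.21 (adjusted p = 0.625).

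**Figure D4:**
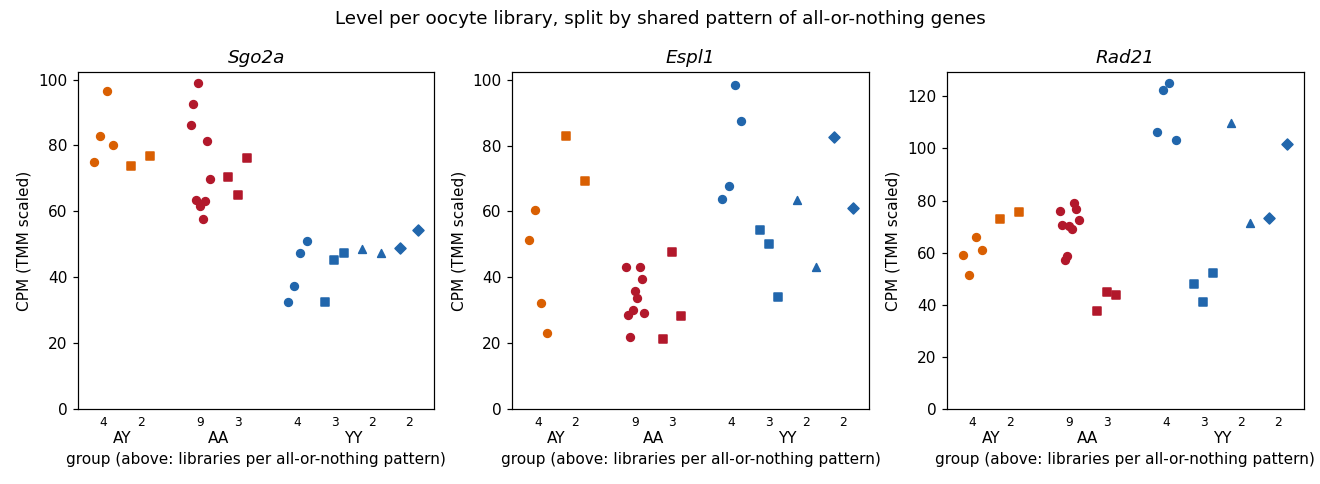
TMM-scaled CPM (vertical axis, from 0) of Sgo2a, Espl1 and Rad21 in AY, AA and YY libraries, with symbols and columns for the on-off patterns of each group and the number of libraries under each column. Every Sgo2a column of AY and AA lies above those of YY. Rad21 lies at 37.6 to 45.1 CPM in 1 AA column and at 57.0 to 79.1 CPM in the other. How many genes separate such columns was not counted.

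Across the 45 single oocytes Sgo2a and Espl1 ran in opposite directions (Pearson r = -0.56 of log2 CPM, and -0.37 after the group means were removed), as did Sgo1 and Espl1 (r = -0.52, and -0.33). Sgo1 and Sgo2a ran together (r = 0.47, and 0.35), as did Rad21 and Espl1 (r = 0.45, and 0.37). The values of 1 library share its depth and scaling, and these correlations are descriptions. The gene most like Sgo2a over the 45 libraries was Serpine2, a secreted protease inhibitor (r = 0.77), the one most like Espl1 was Tet3, which oxidises 5-methylcytosine (r = 0.78), the one most like Sgo1 was Kbtbd8, an adaptor of a ubiquitin ligase (r = 0.77), and the one most like Rad21 was the actin-binding Shroom3 (r = 0.73). For Smc3 it was the translation factor Eif5b (r = 0.60), for Smc1b the kinase Mapk3 (r = 0.54), for Esco1 the anion channel subunit Lrrc8b (r = 0.57) and for Esco2 the iron-sulfur assembly gene Isca1 (r = 0.59). With the group means removed, r was 0.55 for Serpine2, 0.67 for Tet3, 0.72 for Kbtbd8 and 0.69 for Shroom3. It was then 0.62 for Eif5b, 0.51 for Mapk3, 0.44 for Lrrc8b and 0.62 for Isca1. Each gene was picked as the highest r among all tested genes in these same libraries.

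The wider pathway was read from 31 further genes in 4 lists, of which 27 were tested. In AA against YY 6 of the 27 were called higher and 3 lower, against 12.8% and 14.7% of all genes, and the median log2 fold change of the 27 was 0.08. Of the regulators of separase, 2 of 7 were higher and 1 lower. Ccnb2, a cyclin partner of Cdk1, averaged 456 ± 31.3 CPM in AA and 339 ± 36.8 in YY (SD, n = 12 and 11). Its log2 fold change was 0.42 ± 0.07 (SE, adjusted p = 1.5e-05, edgeR). The ranges did not overlap, 407 to 507 CPM in AA and 285 to 396 in YY, which 0.621% of tested genes showed in either direction. Ccnb2 averaged 416 CPM in in vitro young and 424 in in vivo young oocytes, near AA rather than YY. AA was not tested against the control groups. Ccnb1, which can also hold separase inactive with Cdk1, was higher by 0.29 ± 0.09 (adjusted p = 0.0166). It averaged 1604 CPM in AA, 1307 in YY, 1269 in in vitro young and 1420 in in vivo young oocytes. Fzr1, an activator of the anaphase-promoting complex named after its values were seen, was lower (-0.66 ± 0.23, adjusted p = 0.0294). It averaged 17.7 CPM in AA, 27.8 in YY, 28.4 in in vitro young and 21.4 in in vivo young oocytes. The Ccnb1 and Fzr1 calls were lost against YY S198 to S202 alone, that of Ccnb1 also with scaling by library totals, and that of Fzr1 also without YY replicate 7, 8 or 9 or AA replicate 4, 9 or 12. Over all alternatives the fold change lay between 0.006 and 0.57 for Ccnb1 and between -1.03 and -0.002 for Fzr1. Securin, Pttg1, which binds and inhibits separase, was far more abundant than Espl1, at 1940 CPM per kb in AA and 1942 in YY, and did not differ (-0.01 ± 0.10, adjusted p = 0.97).

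Of the centromere protection genes, 2 of 11 were higher in AA than in YY and 1 lower. Bub1, the kinase whose histone mark recruits shugoshin, measured 128.03 to 240 CPM in AA (median 194) and 58.7 to 166 in YY (median 125), a log2 fold change of 0.73 ± 0.14 (SE, adjusted p = 0.000136, edgeR). Ppp2ca, a catalytic subunit of PP2A, measured 9.82 to 21.6 CPM in AA (median 15.4) and 19.5 to 73.9 in YY (median 41.0), a log2 fold change of -1.35 ± 0.23 (adjusted p = 2.3e-05) that became -0.77 against YY S198 to S202 alone (adjusted p = 0.0826). The PP2A scaffold subunit Ppp2r1b, named after its values were seen, was higher by 0.70 ± 0.22 (adjusted p = 0.0153), a call lost against the same YY libraries. The ranges of Ppp2ca met only at their edges, and those of Bub1 overlapped more. In in vitro young and in vivo young oocytes Bub1 averaged 181 and 209 CPM, and Ppp2ca 33.7 and 25.8 CPM. Ppp2r1b averaged 30.4 CPM in AA, 18.3 in YY, 28.0 in in vitro young and 27.1 in in vivo young oocytes.

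Among the loading and release genes 2 of 6 were called higher in AA than in YY: Cdca5, which encodes the cohesion factor sororin (0.24 ± 0.07, adjusted p = 0.0111), and Mau2, part of the cohesin loader (0.56 ± 0.21, adjusted p = 0.0397). Among the ring paralogs 1 of 3 was called, Stag2, lower by 0.46 on the log2 scale (-0.46 ± 0.17, adjusted p = 0.0433). Cdca5 averaged 441 CPM in AA, 371 in YY, 405 in in vitro young and 387 in in vivo young oocytes. In the same order Mau2 averaged 24.0, 16.3, 25.5 and 36.0 CPM, and Stag2 27.8, 37.5, 36.8 and 25.5 CPM. All 3 calls were lost against YY S198 to S202 alone, and those of Cdca5 and Mau2 also with scaling by library totals. That of Mau2 was lost as well against YY S225 to S231 alone, in limma voom, with no filter and with only 2 groups in the fit, its fold change staying between 0.47 and 0.60 over all alternatives. That of Stag2 was also lost with no filter and in the fit of all 45 libraries, and its fold change was -0.16 against YY S198 to S202 alone and -0.67 against YY S225 to S231 alone. With 1 library left out, the Mau2 call was lost without YY replicate 1, 3, 7, 10 or 11 or AA replicate 5, 6, 7, 8 or 12, and the Stag2 call without YY replicate 4, 7, 8, 9, 10 or 11 or AA replicate 5, 6, 7, 9 or 11.

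Between AY and AA 2 of the 27 genes were higher and 1 lower, against 3.52% and 3.07% of all genes. Sgo2b, given above, and Ppp2ca, named after its values were seen (0.88 ± 0.27 SE, adjusted p = 0.0414), were higher in AY, and Bub1 was lower (-0.56 ± 0.17, adjusted p = 0.0367). Ppp2ca averaged 28.0 CPM in AY, 15.6 in AA and 39.3 in YY, and Bub1 averaged 132 CPM in AY, 192 in AA and 115 in YY. The Bub1 call was lost without AY replicate 1, 3, 5 or 6 or AA replicate 3, 5, 7 or 12, and the Ppp2ca call without AY replicate 1, 2, 5 or 6 or AA replicate 2, 3, 7, 9, 11 or 12. Both calls were also lost in the fit of all 45 libraries, that of Bub1 with scaling by library totals (-0.50, adjusted p = 0.0515), and that of Ppp2ca in limma voom (0.77, adjusted p = 0.0714). None of the 27 was called between AY and YY (2 at an unadjusted p under 0.05) or between in vitro young and in vivo young oocytes (4 at an unadjusted p under 0.05). Between YY and in vitro young oocytes Bub1 alone was called, lower in YY (-0.65 ± 0.18, adjusted p = 0.0474, 58.7 to 166 CPM in YY and 119 to 242.05 in in vitro young oocytes), against a background of 1.7% of genes lower. That call was lost with 12 of the 19 libraries left out in turn (in vitro young replicates 4 to 8 and YY replicates 1, 5, 6, 7, 8, 10 and 11), with no filter (adjusted p = 0.0863) and with YY S198 to S202 alone (-0.52, adjusted p = 0.28).

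**Figure D5:**
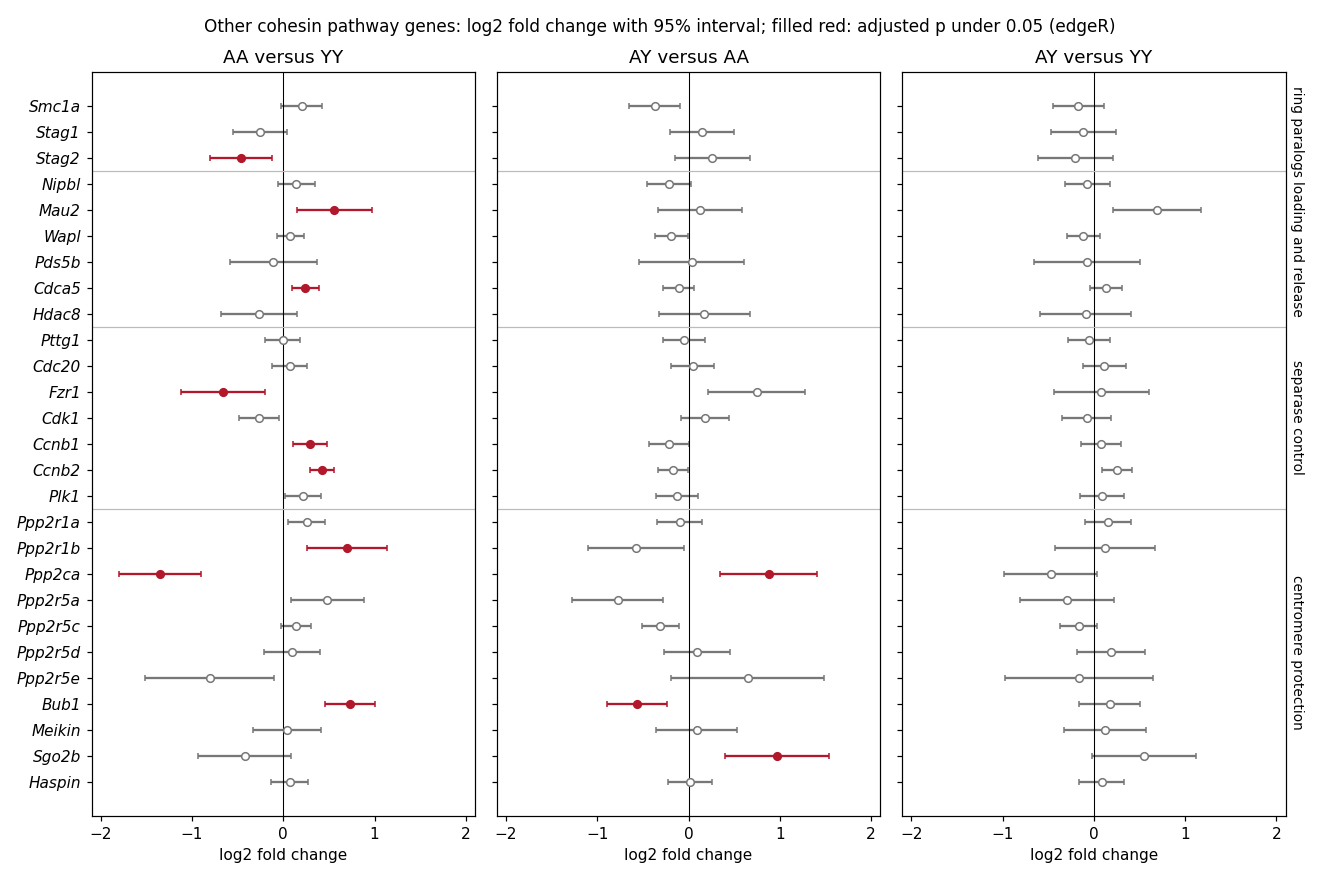
log2 fold change (horizontal axis), first-named group over second, of the 27 tested pathway genes in AA against YY, AY against AA and AY against YY, with 95% intervals and the 4 lists named at the right. Filled red points passed an adjusted p under 0.05: 9 in AA against YY, 3 in AY against AA and 0 in AY against YY.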

How the data were processed

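Single mouse oocytes were lysed and their RNA was made into libraries with a kit for single cells, with 16 cycles of cDNA amplification and 8 cycles of library PCR, per the labels' protocols. The deposited table holds the authors' read counts per gene, 1 column per library, and STAR 2.7.8a, HTSeq 0.11.0 and the mm39 build are named in the submitters' processing notes. Parameters and the strand setting are not given in the sources used here. PCR copies without molecular identifiers are not independent molecules, and the limit taken from 3 counts covers counting error only. The intervals come from the fit and also hold the spread between libraries of a group.

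The genes and pathway lists were chosen with earlier results of these data known. Counts were tested with the edgeR 4.0.16 quasi-likelihood test (R 4.3.3; TMM scaling; filterByExpr with a minimum of 10 counts; robust), in 1 fit of 29 AY, AA and YY libraries and 1 of 27 YY and control libraries, with Benjamini-Hochberg adjustment over all 8533 and 8749 genes tested. An SE is the log2 fold change divided by the root of the F statistic, and a 95% interval spans 1.96 SE. CPM values were scaled over all 45 libraries, and exon lengths came from GENCODE M21. All 10 genes are named, and of the pathway genes up to 2 called per list and comparison with the smallest p, with exceptions marked. The gene most like each was the tested gene with the highest Pearson r of log2 CPM (prior count 2), predicted gene models left out. Ratios were compared by permutation. The ratio of Rec8 to Rad21 was planned and not run because Rec8 had no counts, so 10 ratio tests were adjusted together. DESeq2 1.42.0 and limma 3.58.1 were alternatives. Recovery of known changes was tested on simulated data. All pairs of libraries in a group differed by more than sampling noise (chi-square over degrees of freedom at least 1.98). Promoter windows came from RefSeq on GRCm38.p6, another build than the deposited coordinates, and were matched by symbol.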

Additional observations from a re-analysis of the deposited data

Results flagged for a closer look

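Stag3 stood apart in 2 single libraries, each by a gap to the next library that is large against the range of its group. AY replicate 4 had 7.56 CPM of Stag3, from 4 counts, while the other AY libraries had 0 to 2 counts. The in vivo young replicate 2 had 19.6 CPM, from 23 counts, while the other in vivo young libraries had 0 to 7 counts. Groups of 4 to 10 libraries were examined for 9 genes, 27 groups in all, and chance flags about 1 in 20 where values follow a normal spread. Counts this near 0 need not follow one, so the rate for Stag3 is not known. AY replicate 4 was also the shallowest AY library, with 538916 counts in total. What sets these 2 oocytes apart was not tested.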

How the results depend on the processing

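Over 488 member fold changes recomputed under alternatives, 465 kept their direction where called and their side of the threshold, 19 lost the call, 4 gained one and 0 reversed. The 465 include members that were not called at first and stayed so, and all 19 losses fall on called members. In AA against YY the call was lost for Rad21 in 3 of 13 alternatives and for Sgo1 and Espl1 in 2 of 13 each. For Sgo2a it was lost in 2 of 14, 1 of them the paralog sum, which is outside the 488. Espl1 in AY against AA lost it in 4 of 11. In AY against YY Esco1 lost it in 6 of 13 and Sgo2a in 1 of 14. Of 4 members called in AA against YY, 1 was called against YY S198 to S202 alone and 0 with patterns summed. Of 1 called in AY against AA, 2 were called by DESeq2, 1 by limma voom (Esco1 in place of Espl1), and 0 in a fit of all 45 libraries, with the pattern as a random block or with patterns summed. Of 2 called in AY against YY, 1 was called with no filter, with only 2 groups in the fit, against YY S198 to S202 alone and when on-off patterns formed a random block, and 0 with patterns summed. With the replicate number as a block, 1 was called in AY against YY, and no other comparison changed its count of called members. Of the pathway calls, that of Mau2 in AA against YY (adjusted p = 0.0619) and that of Bub1 in YY against in vitro young oocytes (adjusted p = 0.0782) did not pass with this block. Same-numbered deviations correlated at -0.21 to 0.24, and in no comparison did all pairs exceed 0.1. In AY against YY 2 of 6 pairs exceeded 0.1, and in in vitro young against in vivo young oocytes 4 of 8. In AY against YY 3 of the 6 AY libraries correlated best with the YY library of their own number, in AY against AA 0 of 6. The main fits treat the libraries as unpaired, and these values cannot tell whether some of them are paired. With 1 library left out in turn, 3 to 4 members were called in AA against YY, 0 to 1 in AY against AA, 1 to 2 in AY against YY, and 0 to 0 in both control comparisons. The log2 ratio of Stag3 to Stag1 plus Stag2 in AA against YY was 0.93 against YY S198 to S202 alone. In these cases the cause was not tested. Of the 13 pathway calls, 10 were lost with the pattern as a random block (3 remained, Bub1, Ccnb2 and Ppp2ca in AA against YY) and all 13 with patterns summed, which leaves 2, 2 and 4 sums for AY, AA and YY.

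Counts over all genes moved by over 1.5 times as follows. In AA against YY 2348 calls became 1103 with the random block, 451 against YY S198 to S202 alone and 2 with patterns summed. In AY against AA 562 became 848 in limma voom, 876 with only 2 groups, 1078 with the replicate block, 97 with the random block, 1 with patterns summed, 203 without AY replicate 1 and 306 without AY replicate 6. In AY against YY 138 became 236 with no filter, 79 with only 2 groups, 30 with the random block, 0 with patterns summed, 847 against YY S225 to S231 alone, and 85, 88 and 84 without AY replicates 2, 4 and 5. In YY against in vitro young oocytes 217 became 404 in DESeq2, 558 in limma voom, 378 in a fit of all libraries, 115 with the replicate block, 97 with the random block, 0 with patterns summed, 99 with YY S198 to S202 alone, 803 with YY S225 to S231 alone, and 114 to 352 without in vitro young replicate 3, 5, 6, 7 or 8. In in vitro young against in vivo young oocytes 12 became 0 to 44 over the alternatives.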
